A study of Macaca fascicularis with 64 samples.

Results

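The pan-endocrine transcription factors are a set of 10 genes named in advance by symbol: NEUROD1, ISL1, PAX6, NKX2-2, INSM1, RFX6, RFX3, MYT1, ST18 and GLIS3. Of these, 9 had a row among the 21041 macaque genes of the count tables; MYT1 had none under that symbol and was not analysed here. The factors were followed across α-, β-, δ- and PP-cells of cynomolgus monkey islets and between young and old animals. The study sampled 8 young monkeys aged 4 to 6 years and 8 old monkeys aged 18 to 21 years, with 4 females and 4 males at each age, and the labels name no treatment. Islets were picked by hand from the tail of the pancreas, dissociated, and single cells were taken by mouth pipette into 4 libraries per monkey, in which every captured transcript carries a unique molecular identifier (UMI); the labels call the protocol a modified SMART-seq2 and the methods a modified STRT-seq. Monkeys were processed on separate days, so that day and animal cannot be told apart.

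Endocrine cells of the islet arise from a common progenitor, and the factors followed here act in that lineage before and after the hormone identity is set. NEUROD1 is a basic helix-loop-helix activator that pairs with E-proteins. ISL1, a LIM-homeodomain protein, works through the LDB1 scaffold and with NEUROD1 on hormone genes, while PAX6, a paired-homeodomain protein, binds the glucagon, insulin and somatostatin promoters. NKX2-2, a homeodomain protein, recruits TLE corepressors. INSM1, MYT1 and ST18 are zinc-finger proteins of the neuroendocrine programme. RFX3 and RFX6 bind X-box motifs, RFX3 chiefly in genes of the primary cilium, and GLIS3 is a Krüppel-like zinc-finger activator of the insulin gene whose loss causes neonatal diabetes in humans.

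Of 6141 cells in the tables, 5908 had over 800 genes and over 10000 UMIs. Each was typed by the highest of GCG, INS, SST and PPY, which gave 4503 α-cells, 1219 β-cells, 112 δ-cells and 74 PP-cells. Levels are given as CPM, the UMIs of a gene per 1000000 UMIs of macaque genes after adding up a monkey's cells of that type. A monkey entered with 5 cells of the type or more, which held for 16 monkeys in α-cells and in β-cells. In δ-cells it held for 11 (7 young, 4 old) and in PP-cells for 6 (2 young, both male, and 4 old). The summed depth ran from 14089079 to 27439498 UMIs in α-cells and from 622124 to 19086370 in β-cells, but only from 206257 to 706643 in δ-cells and from 208618 to 1498899 in PP-cells, so δ- and PP-cell values are the least precise. Other markers followed the hormone: IRX2 averaged 475 CPM in α-cells against 40.4 in β-cells, MAFA 116 in β-cells against 5.83 in α-cells, and HHEX 357 in δ-cells against at most 2.41 elsewhere. The PP marker MEIS2 was lower in PP-cells (211) than in δ-cells (292), so PP-cells rest on PPY and on ETV1 (204 against 115 in δ-cells). The highest hormone was under 2 times the second in 1.93% of α-cells, 10.7% of β-cells, 9.82% of δ-cells and 21.6% of PP-cells. In young female 2 the acinar marker list summed to 2674 CPM in α-cells, against at most 119 in the other young monkeys and 55.3 in old ones.

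Most cells held UMIs of 6 of the factors. A UMI of ISL1 was present in 98.0% of α-cells, 96.9% of β-cells, 97.3% of δ-cells and 98.6% of PP-cells. PAX6 was present in 97.6%, 97.9%, 93.8% and 100% of the same types, and RFX6 in 94.6%, 90.7%, 89.3% and 87.8%. ST18 was seen in 89.1% of α-cells and 75.0% of δ-cells, NKX2-2 in 88.1% of β-cells and 67.9% of δ-cells, and NEUROD1 in 75.0% of α-cells and 56.8% of PP-cells. Behind these shares lay a median of 25 ISL1 UMIs and 24 PAX6 UMIs per α-cell but only 4 of NEUROD1, with single α-cells reaching 671, 735 and 325 UMIs. The remaining 3 factors were rare. RFX3 was seen in 11.4% of α-cells and 10.2% of β-cells, GLIS3 in 1.15% and 11.2%, and INSM1 in 13 of 4503 α-cells, 6 of 1219 β-cells, 1 of 112 δ-cells and 0 of 74 PP-cells, the last of which allows a share of up to 4.05%.

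A share of cells with a UMI also counts RNA that came from other cells. As a reference, 46 cells with high immune, stellate or endothelial markers were picked, of which 35 had been typed α, 9 β and 2 PP. The reference cells also stayed in the values of those types, unless an alternative left them out. These cells held ISL1 in 78.3%, PAX6 in 84.8%, RFX6 in 69.6%, NKX2-2 in 65.2%, ST18 in 60.9% and NEUROD1 in 28.3%, at a median of 62388 UMIs per cell against 64894 in α-cells. Their median GCG level was 31960 CPM, against 82930 in α-cells. The pooled level in the reference cells was 219 CPM for ISL1, 235 for PAX6 and 21.3 for NEUROD1, and the part of carried-over or mixed RNA in the endocrine values was not tested. NKX2-2 in δ-cells lay near the reference share, with an exact 95% interval of 58.4% to 76.4%. The δ-cells were shallower, however, at a median of 43776 UMIs per cell. With cells thinned to an equal depth, its expected share was 43.1% in δ-cells and 33.6% in reference cells. Its pooled level was 104 CPM in δ-cells and 106 in reference cells. Whether the thinned shares differ was not tested. RFX3 was seen in 3 of 46 reference cells (1.37% to 17.9%), which takes in its shares in α- and β-cells. GLIS3 was in 0 of 46, which allows a share of up to 6.52%; the β-cell share of 11.2% (9.44% to 13.1%) lies above that limit and the α-cell share does not. Intervals and limits cover counting error only.

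**Figure D1:**
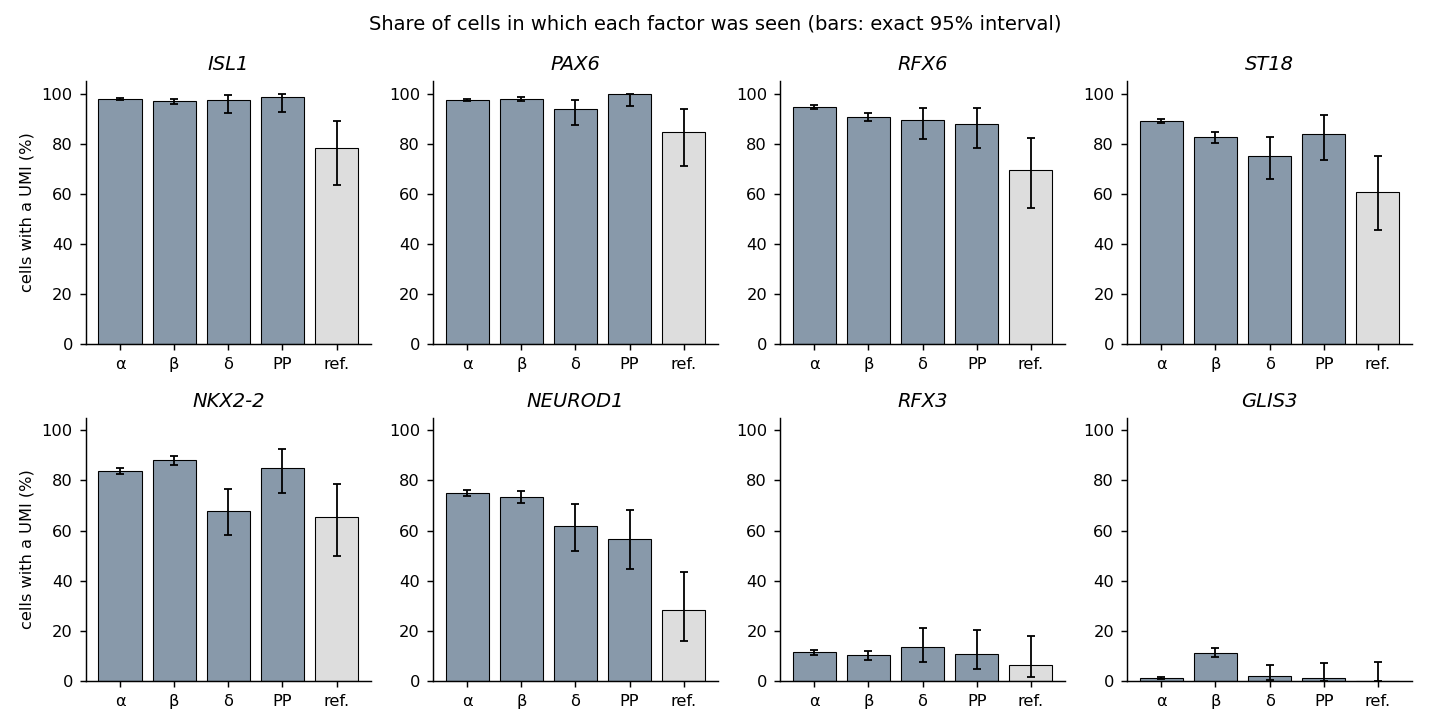
Share of cells with at least 1 UMI of each factor, in percent, for α-, β-, δ- and PP-cells and for the 46 reference cells (ref.) with immune, stellate or endothelial markers; error bars are exact 95% binomial intervals. ISL1, PAX6 and RFX6 stand above 87% in all 4 endocrine types, while GLIS3 reached 11.2% in β-cells and at most 1.79% elsewhere.

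With every cell thinned to 10000 UMIs, the expected shares in α- and β-cells were 89.3% and 74.7% for ISL1, 89.1% and 86.3% for PAX6, and 78.2% and 60.3% for RFX6. For ST18 they were 63.7% and 44.9%, for NEUROD1 47.3% and 38.6%, and for NKX2-2 55.4% and 60.2%, so NKX2-2 was the 1 factor of these 6 with the higher thinned share in β-cells. Reference cells at the same depth gave 54.0% for ISL1, 58.0% for PAX6 and 13.4% for NEUROD1. All 6 factors were seen together in 60.5% of α-cells, 54.6% of β-cells, 36.6% of δ-cells and 44.6% of PP-cells, against 19.6% of reference cells. At 10000 UMIs a cell these fell to 13.4%, 4.70%, 7.14%, 6.76% and 2.27%. The share of cells with all 6 did not differ detectably with age in α-cells (61.0% ± 17.96 young and 58.9% ± 8.39 old, SD, n = 8 each, two-sided exact permutation p = 0.807) or in β-cells (51.9% ± 15.2 and 55.8% ± 9.82, n = 8 each, two-sided exact permutation p = 0.549).

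The study asks which genes set the islet cell types apart, and α-cells are the largest group to compare with. In β-cells, 5 of the 8 factors tested were lower than in α-cells and 1 was higher, while 2 did not pass the test. ISL1, RFX6, ST18, NEUROD1 and PAX6 were the lower ones, by 1.39- to 2.11-fold, and GLIS3 was the higher one. Each monkey served as its own control in the edgeR fit, and p-values were adjusted over 12899 genes. Of all genes tested, 25.0% passed, 8.66% as higher and 16.3% as lower in β-cells. The median log2 difference was -0.80 over the 8 factors and -0.11 over all genes tested. INSM1 fell under the filter on low counts in every comparison.

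ISL1 ran from 327 through a median of 435 to 681 CPM in α-cells and from 156 through 225 to 368 in β-cells. It was lower in β-cells in 16 of 16 monkeys, although the ranges overlapped at the level of different animals. The log2 difference was -1.08 ± 0.11 (SE, n = 16, adjusted p = 6.9e-11). RFX6, whose loss blocks endocrine differentiation, ran from 169 through 290 to 385 in α-cells and from 110 through 149 to 200 in β-cells, again lower in all 16 monkeys (log2 -0.88 ± 0.15, adjusted p = 3.7e-06). ST18 ran from 121 through 185 to 315 in α-cells and from 37.5 through 104 to 153 in β-cells, lower in 15 of 16 (log2 -0.98 ± 0.20, adjusted p = 0.00012).

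NEUROD1 ran from 87.8 through 123 to 177 CPM in α-cells and from 35.7 through 77.7 to 116 in β-cells. It was lower in β-cells in all 16 monkeys, by 1.65-fold (log2 -0.72 ± 0.21, adjusted p = 0.0059). PAX6 ran from 317 through 478 to 651 in α-cells and from 227 through 344 to 416 in β-cells, and was also lower in all 16 (log2 -0.48 ± 0.12, adjusted p = 0.0012), the smallest of the called differences. For none of the 8 factors were the ranges of α- and β-cells apart, which 2.44% of all genes tested showed. In β-cells ISL1, RFX6, ST18, NEUROD1 and PAX6 kept between 47.6% and 71.4% of their mean α-cell level. Among α-cell markers, IRX2 stood at 8.51% of its α-cell level in β-cells, GC at 9.83% and LOXL4 at 35.0%, while TTR averaged 35458 CPM in β-cells and 73836 in α-cells.

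NKX2-2 was the exception among the widely seen factors. It averaged 148 ± 30.7 CPM in α-cells and 160 ± 48.4 in β-cells (SD, n = 16), and was higher in β-cells in 6 of 16 monkeys. The log2 difference was 0.08 ± 0.20 (adjusted p = 0.81). RFX3 averaged 9.23 ± 2.54 in α-cells and 6.09 ± 5.91 in β-cells, with a log2 difference of -0.96 ± 0.55 that missed the threshold (adjusted p = 0.22).

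GLIS3 was the factor of β-cells. Its α-cell level ran from 0 through a median of 0.37 to 2.71 CPM, and its β-cell level from 0.66 through 3.74 to 14.1. It was higher in β-cells in 16 of 16 monkeys. The log2 difference was 3.72 ± 0.58, or 13.1-fold (adjusted p = 1.7e-06), on 163 UMIs in all α-cells and 541 in all β-cells. Of the 39 UMIs in the highest α-cell value, that of old female 4, a single cell held 30, and the value was 0.63 without that cell.

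**Figure D2:**
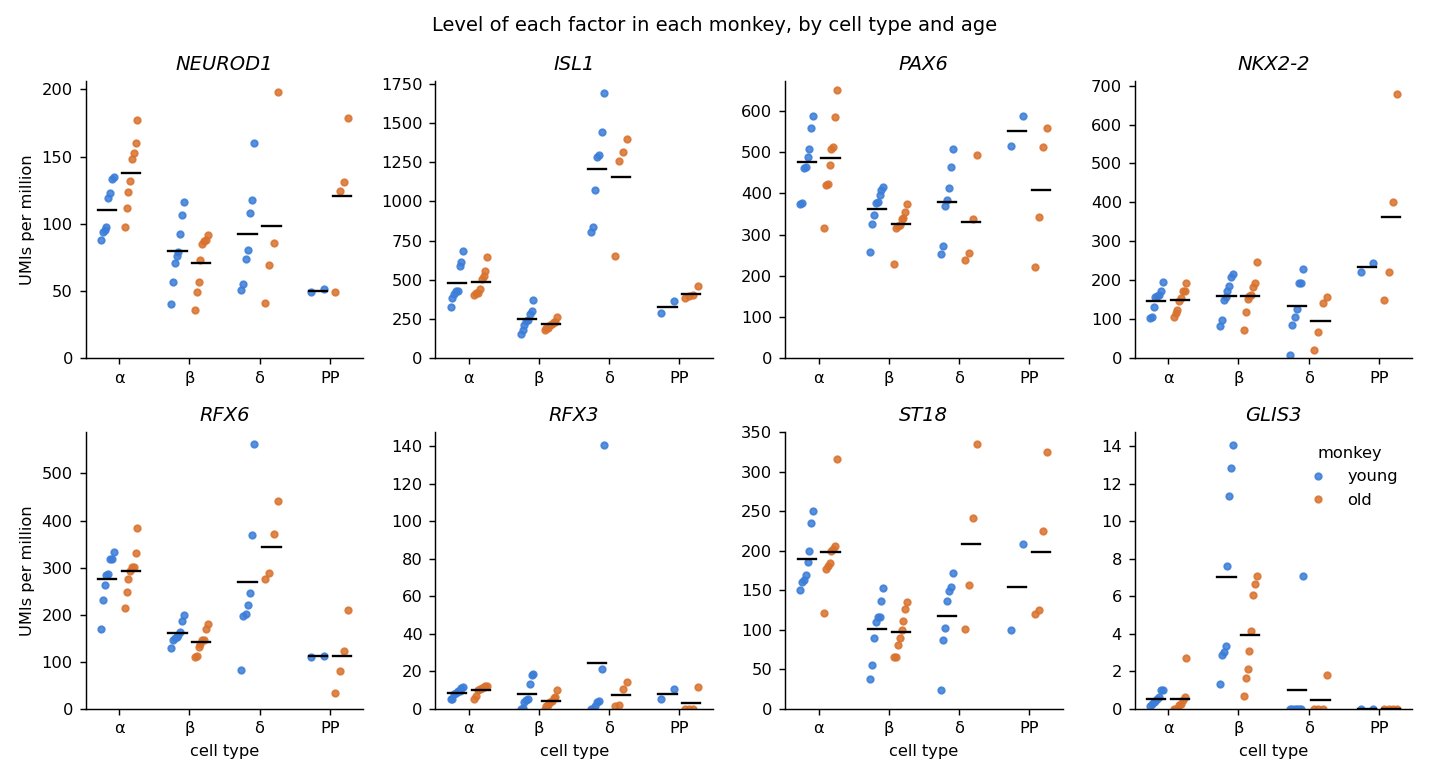
CPM (vertical axis, from 0) of 8 factors in each monkey, for α-, β-, δ- and PP-cells; each point is 1 monkey with at least 5 cells of the type (blue, young; orange, old) and each black line is the mean of an age group. ISL1 in δ-cells, at 652 to 1692, lies above every β-cell value, and GLIS3 is highest in β-cells.

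δ-cells stood out by ISL1. In the 11 monkeys with enough δ-cells, the young animals held 805, 836, 1076, 1285, 1294, 1446 and 1692 CPM and the old ones 652, 1260, 1313 and 1401. Every δ-cell value was above every β-cell value. The ranges of δ- and β-cells were apart, in either direction, for 0.558% of all genes tested. Each δ-cell value of ISL1 was also above the α-cell value of its own monkey. The log2 difference from α-cells was 1.18 ± 0.13, or 2.26-fold (adjusted p = 6.3e-10), and from β-cells 2.26 ± 0.13, or 4.78-fold (adjusted p = 1.4e-19). PAX6 was lower in δ-cells than in α-cells (362 ± 99.8 against 481 ± 88.4, SD, n = 11 and 16; log2 -0.52 ± 0.14, adjusted p = 0.0042). This difference lay near the median of all genes tested, -0.47, and PAX6 was higher in δ-cells in 3 of the 11 monkeys. The PAX6 call was lost with DESeq2's size factors in edgeR (log2 -0.31, adjusted p = 0.10) and in DESeq2 (-0.31, adjusted p = 0.063). With those size factors the median of all genes was 0.21 higher on the log2 scale. The acinar marker list summed to between 68.4 and 1125 CPM in δ-cells, most of it CPB1, and its part in these values was not tested.

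Of the 8 factors, 2 passed between δ- and α-cells, 1 higher and 1 lower, where 23.2% of all genes passed (4.36% higher, 18.9% lower). NEUROD1 (log2 -0.60 ± 0.25, adjusted p = 0.075), NKX2-2 (-0.54 ± 0.25, 0.11) and ST18 (-0.52 ± 0.24, 0.10) missed the threshold, all near the median of all genes, which was -0.47. With at least 10 cells per monkey, these 3 passed too, 5 in all. RFX6 averaged 296 ± 133 in δ-cells, close to its 285 ± 52.0 in α-cells (log2 -0.18 ± 0.17, adjusted p = 0.49).

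Between δ- and β-cells 3 factors passed, ISL1 and RFX6 as higher and GLIS3 as lower in δ-cells, where 19.8% of all genes passed (5.26% higher, 14.5% lower). RFX6 differed by 0.71 ± 0.17 on the log2 scale (adjusted p = 0.0020) and was higher in δ-cells in 10 of the 11 monkeys. GLIS3 had 4 UMIs in the 11 δ-cell sums, 3 of them in young male 2, with a mean of 0.81 CPM (log2 -3.09 ± 0.91, adjusted p = 0.012). Over 26 alternatives the difference ran from -4.46 to -2.31, and the call was lost with at least 10 cells per monkey (-2.39, adjusted p = 0.13). RFX3 in δ-cells averaged 18.2 but its median was 3.63: young male 1 stood at 141, with 23 of its 29 UMIs in a single cell.

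PP-cells carried more NKX2-2 and less RFX6. Both rest on 6 monkeys and at most 33 cells each. NKX2-2 stood at 245 and 221 CPM in young males 1 and 4, at 678 and 221 in old females 1 and 2, and at 149 and 401 in old males 2 and 4. Each value was above those of the same monkey's α- and β-cells. The log2 difference was 1.09 ± 0.30 from α-cells (adjusted p = 0.019), 1.01 ± 0.30 from β-cells (adjusted p = 0.015) and 1.63 ± 0.33 from δ-cells (adjusted p = 0.00053). NKX2-2 lost its call against α-cells in 6 of 28 alternatives, as it did against β-cells, and against δ-cells in 2 of 28. With cells thinned to 10000 UMIs the difference from α-cells was 0.64 (adjusted p = 0.16). Without old female 1 the first 2 missed the threshold (0.77, adjusted p = 0.097, and 0.69, adjusted p = 0.090), and likewise without old male 4 (0.92, adjusted p = 0.086, and 0.85, adjusted p = 0.077). Old female 1 also had the highest stellate marker sum in PP-cells, 1032 CPM against at most 33.4 in the other old monkeys; without the immune, stellate and endothelial reference cells the NKX2-2 difference from α-cells was 1.09 (adjusted p = 0.020).

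RFX6 in PP-cells stood at 113 and 111 CPM in young males 1 and 4, at 123 and 80.7 in old females 1 and 2, and at 33.6 and 211 in old males 2 and 4. Each PP-cell value was under the α-cell value of the same monkey. The log2 difference from α-cells was -1.46 ± 0.24, or 2.75-fold lower (adjusted p = 2.5e-05), and from δ-cells -1.28 ± 0.24 (adjusted p = 0.00021). From β-cells it missed the threshold (-0.57 ± 0.23, adjusted p = 0.078).

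Between PP- and α-cells 2 of 8 factors passed, 1 in each direction, where 6.61% of all genes passed (1.78% higher, 4.82% lower). Between PP- and β-cells 5 passed, where 17.2% of all genes did (6.67% higher, 10.6% lower): ISL1 (log2 0.81 ± 0.17, adjusted p = 0.00038), NKX2-2, ST18 (0.87 ± 0.30, adjusted p = 0.035) and PAX6 (0.47 ± 0.17, adjusted p = 0.048) were higher in PP-cells and GLIS3 was lower. PAX6 lost its call in 18 of 28 alternatives and ST18 in 8 of 28, among them the removal of old female 2 (ST18 0.39, adjusted p = 0.42). GLIS3 had no UMI in the 6 PP-cell sums, and against the limit that a count of 0 over the group allows its level was at least 5.99-fold lower than in β-cells (adjusted p = 0.013). That call was lost in 3 of 26 alternatives, with an adjusted p of up to 0.41 with at least 10 cells per monkey. Between PP- and δ-cells 3 passed, NKX2-2 as higher and ISL1 (log2 -1.45 ± 0.18, adjusted p = 1.2e-07) and RFX6 as lower in PP-cells, where 10.3% of all genes passed (6.51% higher, 3.83% lower).

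**Figure D3:**
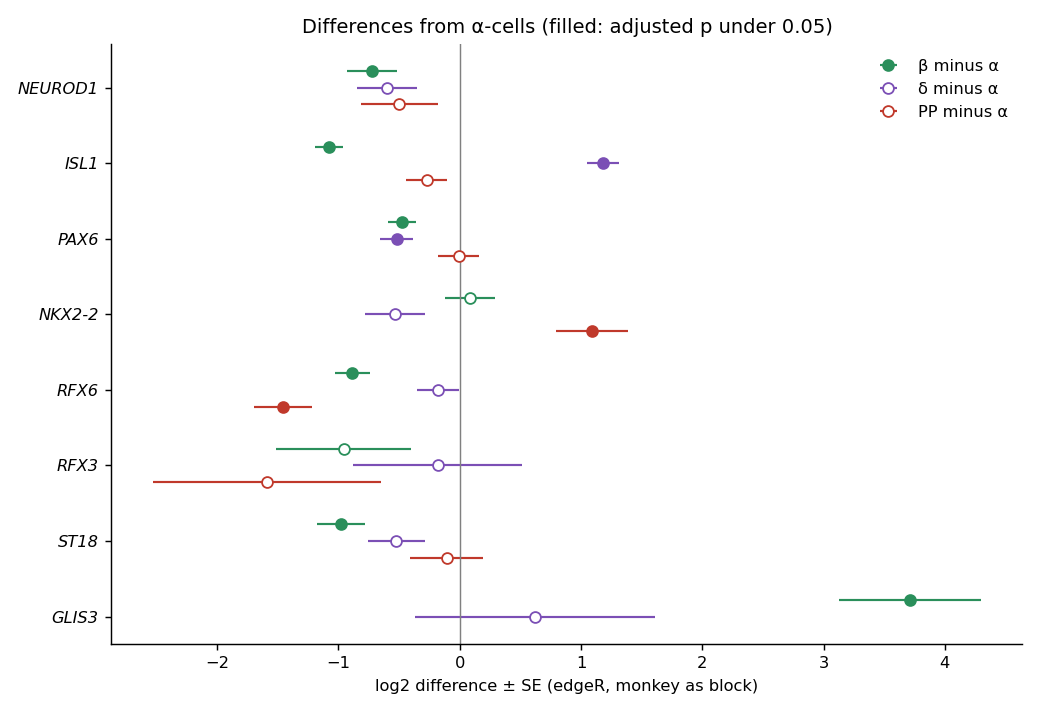
Log2 difference of each factor from α-cells (horizontal axis, ± SE from the edgeR fit with the monkey as a block) in β-, δ- and PP-cells; filled points have an adjusted p under 0.05, and GLIS3 in PP-cells, with no UMI, is not drawn. Filled points left of 0 in β-cells are ISL1, ST18, RFX6, NEUROD1 and PAX6, ISL1 lies at 1.18 in δ-cells, and NKX2-2 at 1.09 and RFX6 at -1.46 in PP-cells.

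Ordered by level, NEUROD1 had its highest mean in α-cells (124), from which β-cells alone were told apart, and its means in PP-, δ- and β-cells (97.3, 94.6 and 75.3 CPM) did not differ beyond their spread. ISL1 ran from δ-cells (1187) through α- (486) and PP-cells (383) to β-cells (231), with α- and PP-cells not told apart (adjusted p = 0.35). PAX6 ran from α- (481) and PP-cells (456), not told apart (adjusted p = 0.99), to δ- (362) and β-cells (344), not told apart either (adjusted p = 0.87); the middle pair, PP- and δ-cells, was not told apart (adjusted p = 0.061). NKX2-2 was highest in PP-cells (319), and the neighbours β-, α- and δ-cells (160, 148 and 120) were not told apart. RFX6 was high in δ- and α-cells (296 and 285) and low in β- and PP-cells (151 and 112), with neither pair told apart. ST18 had its lowest mean in β-cells (99.1); its neighbour, δ-cells (151), was not told apart from it (adjusted p = 0.18), nor were α-, PP- and δ-cells (194, 184 and 151) from each other. In sums over a type alone, fewer expressing cells and less RNA per cell cannot be told apart. Cell by cell, ISL1 had a UMI in 98.0% of α- and 96.9% of β-cells, with medians of 25 and 12 UMIs. For PAX6 the shares were 97.6% and 97.9% and the medians 24 and 21. RNA from other cells counts in these shares too.

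Across the 49 sums of a monkey and a type, the genes most like each factor, by Pearson's r of log2 CPM plus 1, were as follows. The 49 points share monkeys, libraries and depth and are not independent. ISL1 was followed most closely by THSD7A (r = 0.85), EHF (0.83) and RGS9 (0.81). For RFX6 they were CTTNBP2 (0.73), MAP2K4 (0.71) and FXYD6 (0.70). NKX2-2 went with KMT2A (0.84), PHC2 (0.80) and FNIP2 (0.79), PAX6 with LENG8 (0.71) and GSK3A (0.70), and ST18 with SFPQ (0.72), TNRC18 (0.71) and KANK1 (0.67). NEUROD1 had weaker companions, TEX30 at 0.66, PRPF40B at 0.64 and a gene without a symbol. GLIS3 was closest to ENTPD3 (0.76), to SLC2A2 (0.75), the glucose transporter of β-cells, and to PRSS53 (0.74). RFX3 was closest to NARFL (0.65), PARD6A (0.65) and RNF219 (0.62), and INSM1 had no gene above 0.41.

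Of 24 partners and cofactors tested, 3 passed between β- and α-cells, where 25.0% of all genes passed (1 higher, 2 lower; median log2 -0.35 against -0.11 for all genes). Between δ- and α-cells 4 passed, where 23.2% of all genes did, and between PP- and α-cells 2, where 6.61% did. TLE1, a corepressor of the kind NKX2-2 binds, averaged 49.3 CPM in β-cells, 51.7 in δ-cells and 7.36 in α-cells (log2 2.87 ± 0.38 for β minus α, adjusted p = 2.3e-08). TLE3, its paralog, went the other way, at 8.31 in β-cells and 21.5 in α-cells (log2 -1.54 ± 0.39, adjusted p = 0.0020). TCF4, an E-protein partner of NEUROD1, was lower in δ-cells than in α-cells (27.1 against 77.7; log2 -1.87 ± 0.40, adjusted p = 0.00052), and TCF12, another E-protein, was higher in PP-cells (74.4 against 19.2; log2 1.72 ± 0.48, adjusted p = 0.021).

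Among inhibitors of helix-loop-helix and neural factors, ID1, ID3, ID4 and HES1 were lower in β- and δ-cells than in α-cells. REST was lower in δ-cells, whose sums held no UMI of it. It averaged only 2.03 CPM in α-cells, so this call rests on low counts. Of 9 tested, 4 passed between β- and α-cells, all lower, where 16.3% of all genes were lower (median log2 -0.68 against -0.11 for all genes). Between δ- and α-cells 5 passed, all lower, where 18.9% of all genes were (median -2.40 against -0.47). Between PP- and α-cells 1 passed, as lower, where 4.82% of all genes were. ID2 did not pass, at 53.1 CPM in β-cells and 43.8 in α-cells, nor did HEY1, at 18.8 in δ-cells and 9.97 in α-cells. ID1 averaged 33.0 CPM in α-cells and 6.26 in β-cells (log2 -2.18 ± 0.40, adjusted p = 2.1e-05). ID4 averaged 20.1 in α-cells, 5.39 in β-cells (-2.51 ± 0.46, adjusted p = 2.5e-05), 1.71 in δ-cells and 1.25 in PP-cells, and passed in all 3. ID3 and the Notch target HES1 passed in β- and δ-cells. In PP-cells ID1, ID3 and HES1 averaged 30.3, 22.6 and 79.6 CPM, against 33.0, 22.2 and 42.2 in α-cells, and did not pass. ID proteins bind E-proteins and keep them from pairing with factors such as NEUROD1.

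Family members were mostly rare, with 9 of 22 passing the filter. GLI3, a relative of GLIS3, averaged 9.56 CPM in α-cells and 0.27 in β-cells (log2 -5.51 ± 0.69, adjusted p = 6.3e-09). PAX4, which is also on the list of type-restricted factors, was higher in β-cells (4.82) and δ-cells (9.82) than in α-cells (0.35), and PAX8 was higher in β-cells (13.6 against 2.82; log2 2.12 ± 0.60, adjusted p = 0.0057). In all, 4 of 9 family members passed between β- and α-cells, where 25.0% of all genes passed (2 in each direction, median log2 -0.40 against -0.11 for all genes). Between δ- and α-cells 1 passed, where 23.2% of all genes did, and between PP- and α-cells 0 in edgeR, where 6.61% did. In the latter 2 of 9 family members had an unadjusted edgeR p under 0.05, where 22.4% of all genes had.

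Of 15 type-restricted factors tested, 11 passed between β- and α-cells, where 25.0% of all genes did, 14 between δ- and α-cells, where 23.2% did, and 3 between PP- and α-cells, where 6.61% did. Their median log2 differences were -0.09, 1.302 and -0.25. IRX2 differed by -3.66 ± 0.20 and MAFA by 4.69 ± 0.34 on the log2 scale in β-cells, and HHEX by 7.31 ± 0.56 in δ-cells, while GLIS3, at 3.72, was the 1 pan-endocrine factor in that range. Of 31 islet target genes tested, 22 passed between β- and α-cells, where 25.0% of all genes did, 11 in each direction (median log2 0.16 against -0.11 for all genes). The prohormone convertases went opposite ways, PCSK1 higher in β-cells (290 against 9.88 CPM) and PCSK2 lower (375 against 2031), as did the granins CHGB (2607 against 1146) and CHGA (288 against 1372). The lists were chosen with results of these data known, so their direction is not independent evidence.

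The other question was age. None of the factors tested passed between old and young monkeys in any type. In α-cells 0 of 8 factors passed in edgeR and 0 in DESeq2, with 1 at an unadjusted p under 0.05, where 0% of 13486 genes passed. In β-cells 0 of 8 passed with either tool and 0 had an unadjusted p under 0.05, where 0.0450% of 11101 genes passed. In δ- and PP-cells 6 factors each could be tested; 0 passed with either tool, 0 had an unadjusted p under 0.05, and 0% of all genes passed. The PP-cell comparison sets 2 young males against 4 old monkeys and had standard errors of 0.56 to 0.96 on the log2 scale. In δ-cells ST18 averaged 118 ± 50.8 in 7 young and 208 ± 103 in 4 old monkeys (SD; log2 0.81 ± 0.53, adjusted p = 1.00). In PP-cells NEUROD1 stood at 51.1 and 48.9 in the 2 young males and averaged 121 ± 53.5 in the 4 old monkeys (log2 1.46 ± 0.96, adjusted p = 0.90).

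NEUROD1 in α-cells came nearest. Young monkeys ran from 87.8 through a median of 108 to 135 CPM and old ones from 97.7 through 140 to 177, with overlapping ranges. The log2 difference was 0.31 ± 0.12 (n = 8 each, unadjusted p of the edgeR fit = 0.0187, adjusted p = 0.71), and it stayed between 0.26 and 0.38 in all 28 alternatives, none of which passed. By sex, young females averaged 93.6 ± 4.20, young males 127 ± 7.88, old females 145 ± 23.7 and old males 130.5 ± 30.6 (SD, n = 4 each). The 4 young females held the 4 lowest values of the 16 monkeys, 87.8 to 97.6, just under old male 1 at 97.7. The difference of the age effect between males and females was -0.58 ± 0.20 on the log2 scale (adjusted p = 0.87). In β-cells NEUROD1 averaged 79.8 ± 25.0 in young and 70.8 ± 21.03 in old monkeys (log2 -0.16 ± 0.22, adjusted p = 1.00), and the difference of the age effect between the types was -0.48 ± 0.24 (adjusted p = 0.80).

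ISL1 averaged 483 ± 127 in young and 489 ± 85.7 in old α-cells (log2 0.00 ± 0.15) and 247 ± 68.5 and 215 ± 28.3 in β-cells (-0.20 ± 0.18). PAX6 averaged 477 ± 76.9 and 486 ± 104 in α-cells (log2 0.00 ± 0.13) and 363 ± 52.4 and 325 ± 43.8 in β-cells (-0.16 ± 0.13). For RFX6 the means were 276 ± 54.1 and 294 ± 51.7 in α-cells and 161 ± 22.8 and 142 ± 24.5 in β-cells, and for ST18 189 ± 36.5 and 198 ± 54.5, and 102 ± 39.1 and 96.8 ± 26.3. NKX2-2 averaged 148 ± 32.5 and 148 ± 31.1 in α-cells and 159 ± 48.1 and 161 ± 51.9 in β-cells. The log2 differences of these 5 factors were at most 0.20 in size, and the ranges of young and old monkeys overlapped.

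GLIS3 in β-cells ran from 1.298 through 5.46 to 14.1 CPM in young and from 0.66 through 3.61 to 7.10 in old monkeys (log2 -0.91 ± 0.59, adjusted p = 0.96), and RFX3 from 0 through 5.02 to 18.6 and from 0 through 4.00 to 9.86 (-0.98 ± 0.68, adjusted p = 0.98). With standard errors of this size a change of 2-fold was not detectable for them. INSM1 in α-cells averaged 0.017 in young and 0.16 in old monkeys (n = 8 each, two-sided exact permutation p = 0.00528, adjusted p = 0.079 over 15 such tests of factors under the filter), on 29 UMIs in 13 of 4503 cells, with 26 of the UMIs from old monkeys. With at least 10 cells per monkey the α-cell values are the same and the test passes, because 9 tests then enter the adjustment. The median log2 age difference over the 8 factors was 0.02 in α-cells and -0.17 in β-cells, against 0.00 and 0.01 over all genes tested.

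**Figure D4:**
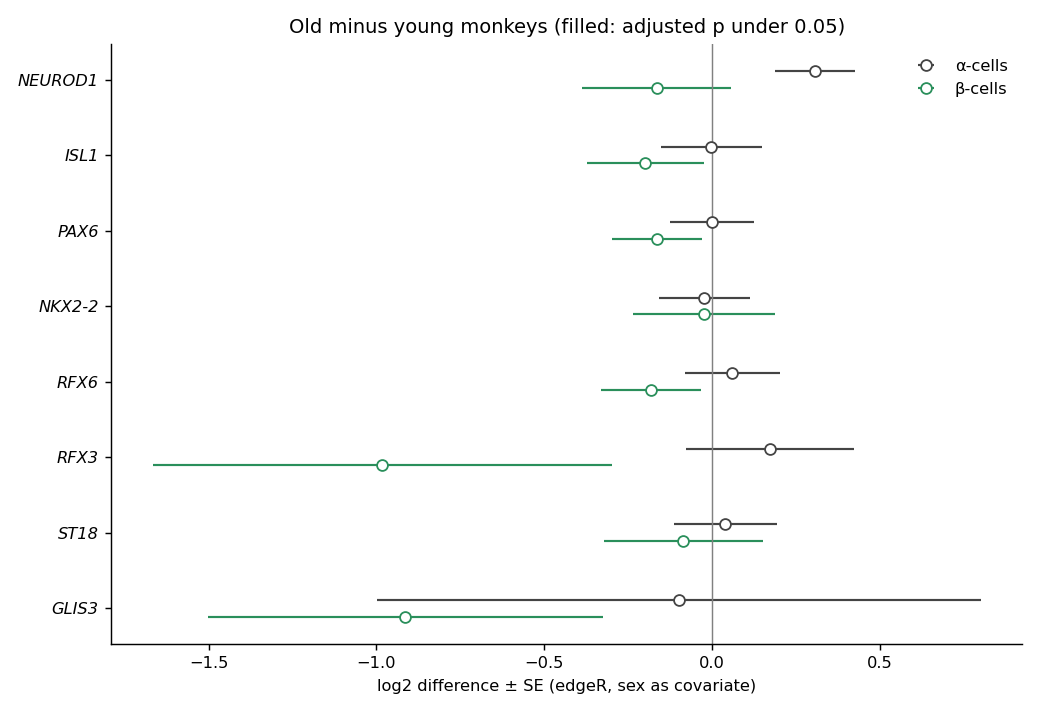
Log2 difference between old and young monkeys (horizontal axis, ± SE from the edgeR fit with sex as a covariate, 8 monkeys per age) for each factor in α-cells (dark) and β-cells (green); open points did not pass an adjusted p of 0.05. No point is filled; NEUROD1 in α-cells lies at 0.31 and the widest error bars belong to the rarely seen RFX3 and GLIS3.

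Tests of the difference of age effects gave 0 of 8 factors between β- and α-cells (0% of 12137 genes; 0 at an unadjusted p under 0.05; 0 in DESeq2). Between males and females they gave 0 of 8 in α-cells (0.00707% of 14146 genes; 1 unadjusted, NEUROD1; 0 in DESeq2) and 0 of 8 in β-cells (0% of 11693 genes; 1 unadjusted, NKX2-2, log2 -0.85 ± 0.39, adjusted p = 1.00; 0 in DESeq2). Old female β-cells averaged 196 ± 36.3 CPM of NKX2-2 and old male ones 125 ± 40.3, against 144 ± 31.8 and 174 ± 61.6 in young females and males (SD, n = 4 each).

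Among listed genes around the factors, 1 passed with age: the granin CHGB, at 3922 CPM in old and 1293 in young β-cells (log2 1.57 ± 0.28, adjusted p = 0.026), the only 1 of 31 islet target genes tested there. TCF3, the E-protein partner of NEUROD1, averaged 47.5 in old and 113 in young α-cells (-1.23 ± 0.37, adjusted p = 0.61), and PAX8 22.5 in old and 4.60 in young β-cells (2.18 ± 0.64, adjusted p = 0.45). None of the partners, inhibitors, family members or type-restricted factors passed in edgeR in either type. In α-cells 1 of 23, 1 of 9, 0 of 9 and 1 of 12 had an unadjusted edgeR p under 0.05, where 6.82% of all genes had. In β-cells it was 1 of 23, 1 of 9, 2 of 6 and 1 of 12, where 5.52% of all genes had. The ductal marker list also moved with age in β-cells, from 116 to 1494 CPM summed over its 8 genes in young and from 460 to 5375 in old monkeys; SPP1 made up most of it, and CFTR and SOX9 were at 0 in all β-cell sums. In α-cells the same list summed to between 117 and 203.3 in young and between 203.5 and 444 in old monkeys. Cells were also deeper in old β-cells, with a median of 81435 UMIs against 64782.5 in young ones. With cells thinned to 10000 UMIs, 0 of the 6 factors then tested passed with age in β-cells and 0 of 7 in α-cells. The part of the ductal list in the age values was not tested.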

How the data were processed

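The deposited tables hold UMI counts per gene and cell, 1 table per library, 64 in all. The authors trimmed the reads, aligned them with TopHat2 2.0.12 (genome Macaca_fascicularis_5.0) and ran HTSeq on those that mapped uniquely, counting a UMI once per gene; the submitters' notes also name CASAVA 1.8. No normalization was applied to the counts. The strand setting of the counting is not given in the sources used here, so reads antisense to a gene cannot be told from its own. A filter on mapping rate that the study used was not applied.

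Here 95 spike-ins, 5.41% of UMIs, were left out, 5908 cells (more than 800 genes, more than 10000 UMIs) were typed by their highest hormone, and counts were summed per monkey and type (at least 5 cells). The monkey is the replicate; 0 cell names were shared by libraries, and the α-cell sums of no pair of monkeys agreed within counting noise (lowest chi-square per degree of freedom 51.6 over 120 pairs). Sums were tested with edgeR 4.0.16 (quasi-likelihood, TMM, filterByExpr, Benjamini-Hochberg over all genes, threshold 0.05): the 4 types in 1 fit with the monkey as a block, age per type with sex as a covariate, and 3 interaction fits. Factors under the filter were tested by exact permutation over monkeys, with Benjamini-Hochberg over 15 tests. The fits were tested on simulated data.

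Alternatives were DESeq2 1.42.0, its size factors in edgeR, no filter, thinned cells, other cell filters and each monkey left out. Doublets were not called; cells with near-equal hormones or above the 95th percentile of UMIs were left out in alternatives. Reference cells had a mean log2(CPM/10 + 1) of at least 2.5 over the immune, stellate or endothelial list, with at least 50% of the list detected; the acinar list was left out after its values were seen, since 173 of the 193 cells it picked came from young female 2. Named genes were the 10 factors, the 3 genes most like each (mean of at least 10 CPM; 1 of them is not reported here) and 5 gene lists: partners and cofactors, inhibitors, family members, type-restricted factors and islet target genes. The factors and lists were chosen with earlier results of these data known. Replicate numbers were not used to pair the monkeys (see the dependence on processing). Statistics ran in R 4.3.3 and Python 3.11.15 with scipy 1.17.1.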

Additional observations from a re-analysis of the deposited data

Results flagged for a closer look

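Of 59 groups of monkeys of 1 age and type looked at per factor, 10 held a value far from the others by Dixon's criterion, against about 1 in 20 by chance. Most of these rest on a few UMIs. RFX3 in δ-cells of young male 1 stood at 141 CPM, with the next young value at 21.3; a single cell held 23 of its 29 UMIs, and the value was 36.8 without it. RFX3 in PP-cells of old female 2 stood at 11.3, where the 3 other old monkeys had 0. GLIS3 stood at 2.71 in α-cells of old female 4, at 7.09 in δ-cells of young male 2 and at 1.79 in δ-cells of old female 2, with 3 UMIs behind the second and 1 UMI behind the last. INSM1 stood at 2.48 in β-cells of young male 2, where a single cell held 15 of 16 UMIs, at 0.31 in β-cells of old female 4 and at 0.094 in α-cells of young male 4.

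The other 2 are well covered. ST18 in α-cells of old male 3 stood at 315 CPM on 7434 UMIs, seen in 286 of 299 cells, where the next old monkey had 206. PAX6 in β-cells of old male 2 stood at 227 on 1330 UMIs in 67 cells, all of which held it, where the next old monkey had 317. The same animal had the lowest PAX6 value in α-cells, δ-cells and PP-cells as well (317, 238 and 220).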

How the results depend on the processing

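With each monkey left out, the number of factors passing stayed at 6 for β minus α, at 2 to 3 for δ minus α, at 3 to 4 for δ minus β and for PP minus δ, and at 0 for every age comparison and interaction; it ran from 1 to 2 for PP minus α and from 3 to 5 for PP minus β, the low ends without old female 1 or old male 4 for the first and without old females 1 or 2, old male 2, young female 1 or young male 4 for the second. For δ minus α, DESeq2 and its size factors each gave 1 and at least 10 cells per monkey gave 5. For PP minus α, 1 passed with thinned cells, without cells of near-equal hormones and with at most 10 cells drawn per monkey and type, and 0 with at least 10 cells per monkey, which leaves 1 monkey for PP-cells. For PP minus β, 3 passed without a filter, 2 with thinned cells and 1 each without cells of near-equal hormones, with at least 10 cells and with at most 10 drawn; PAX6 reversed with at least 10 cells (log2 -0.0800, adjusted p = 0.98). Among the factors under the filter, 0 passed, and 1 did, INSM1 with age in α-cells, with at least 10 cells per monkey, which leaves fewer tests. The causes were otherwise not tested. All other counts stayed within 1.5 times. Of 662 single values behind the calls and behind age results with an unadjusted p under 0.05, 50 lost the call and 1 reversed. Those of NEUROD1 with age in α-cells were not called and had no call to lose. The same holds for the age effects of males against females for NEUROD1 in α-cells and NKX2-2 in β-cells. Of the values of the other factors not called, 22 passed under some alternative, 7 of them in δ minus α and 8 in δ minus β.

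Replicate numbers 1 to 4 recur in each group of monkeys. In α-cells the deviations of same-numbered monkeys correlated from -0.08 to 0.14 over 24 pairs (median 0.007, against 0.002 for other numbers). In β-cells they correlated from -0.17 to 0.099 (median -0.006, against 0.001). Closest to their own number were 8 of 16 monkeys in α-cells and 5 of 16 in β-cells. The number to be met by chance was not computed. With the replicate number as a block, 0 factors passed with age in α-, β-, δ- and PP-cells, as without it. Over all genes, the calls for β minus α ran from 1244 to 5135 over the alternatives (3222 in the edgeR fit as reported), for PP minus α from 47 to 1359 (852) and for old minus young in β-cells from 2 to 41 (5). The size factors of DESeq2 moved the median of all genes by up to 0.24 on the log2 scale in δ- and PP-cells. Low counts limit GLIS3 and INSM1 in every type, RFX3 outside α-cells, and every factor in δ- and PP-cells. RFX3 in α-cells had 2929 UMIs and an age difference of 0.17 ± 0.25 on the log2 scale. At least 10 cells per monkey left no age fit in PP-cells.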
